A study of Mus musculus with 2 samples.

Results

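DNA replication and S phase genes were followed in ribosome footprints of mouse ileum, the end segment of the small bowel. The group comprised 49 genes, taken by symbol from a list covering origin licensing, the replication fork, nucleotide supply and the entry into S phase, and all 49 were found among the 22756 gene rows of both libraries. One library came from fed and 1 from 48 h fasted wild type C57BL/6 mice, both at postnatal day 21, around weaning, so each condition had n = 1. The number of animals behind a library was not stated in the labels. A footprint is the piece of mRNA covered by a ribosome and so left intact by nuclease, and its count reflects the amount of an mRNA together with how heavily it was translated. No mRNA library was analysed here to separate them.

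Before a cell copies its DNA, the origin recognition complex, CDC6 and CDT1 load rings of the MCM2 to MCM7 helicase onto origins. At the G1 to S transition cyclin E with its kinase helps to switch on E2F transcription factors, the helicase is completed by CDC45 and GINS, and polymerases, the sliding clamp PCNA and its loader copy the template while ribonucleotide reductase makes the deoxynucleotides. In the small intestine most dividing epithelial cells lie in the crypts, and the absorptive and secretory cells of the villus no longer divide.

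Gene-assigned footprints numbered 5558620 in fed and 5434252 in fasted ileum. Members took 10321 and 4318 of these, which was 1857 CPM when fed (counts per 1000000 gene counts; exact Poisson 95% interval 1821 to 1893) and 795 CPM when fasted (771 to 819). Ileal identity was checked on 7 markers, and the one with fewest counts, Fgf15, named after its values were seen, had 810 fed and 1739 fasted counts. Every difference below is between these 2 libraries, has no replicate check and carries no p-value, and each interval covers counting error only. Fasted/fed ratios were taken after TMM scaling, a correction for library composition, and a gene was called lower or higher when its ratio passed 1.5-fold and its 95% exact interval excluded 1, with at least 30 counts in sum. Log2 ratios of fasted over fed are given in brackets with that interval. After TMM scaling the summed member counts were 1.87-fold lower in the fasted library (-0.90, -0.95 to -0.85), against 2.34-fold by the unscaled CPM above. Sums of other gene lists below are in unscaled CPM too.

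Footprints of most members were less abundant in the fasted library, and those of Rrm2 more abundant. Among the 47 with at least 30 counts, 40 were lower, 1 was higher and 6 were neither, while 17.3% of the 11333 genes measured in the same way were lower and 17.3% higher. The median log2 ratio of these 47 members was -1.03, against 0.0028 over all measured genes, and 44 of the 47 lay below 0, against 5643 of the 11333. For 7 of the 47 the fasted library gave under 15 counts, so they reached the minimum mainly through the fed library. They were Orc1, Cdc6, Cdc45, Gins1, Gins2, Ccne1 and Ccne2. With no minimum count 41 of 49 were lower and 1 higher (13.8% lower and 13.7% higher of 15676 genes), and at 2-fold 28 were lower and 1 higher (9.13% and 8.25% of all measured genes). With plain CPM, scaled by library totals alone, every log2 ratio moved by -0.32, and 44 were lower and 1 higher (31.2% and 8.86%), at a median of -1.35. In tissue libraries, fewer cells in S phase and fewer footprints per such cell cannot be told apart.

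**Figure D1:**
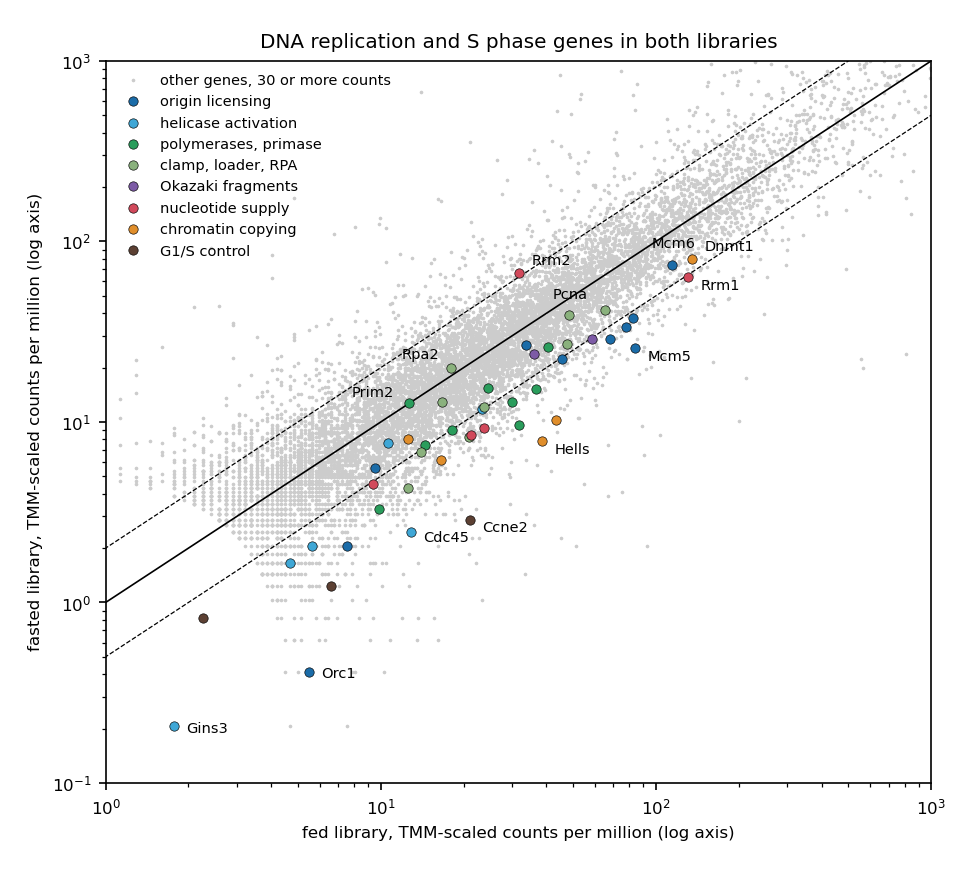
Each point is a gene, with its TMM-scaled CPM when fed on the horizontal and when fasted on the vertical log axis. Members are coloured by role, grey points are other genes with at least 30 counts in sum, the solid line marks equal levels and the dashed lines 2-fold differences. Most members lie below the solid line, and Rrm2 lies above the upper dashed line.

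Many replication genes are known targets of E2F, which binds close to the start site. Promoter sequences, 250 bases before to 50 after the start site, were matched in RefSeq (build GRCm38.p6) for 41 of the 49 members. The others, Ccne2, Rfc2, Gins1, Gins2, Mcm4, Prim2, Pole and Gins4, are named only. The E2F letters TTTCCCGC, TTTGGCGC, TTTCGCGC or TTTGCCGC, searched on both strands with overlapping matches counted, were found for 17 of the 41 members (41.5%), and for 2.60% of the 27025 genes in the table. The share was 27.3% of 33 other replication factors and 4% of 25 mitosis genes. The letters TTTGAA, known from the CHR element of late cell cycle genes, showed another order, at 14.6% of members, 72% of mitosis genes and 20.2% of all genes. The CCAAT box (CCAAT) was found for 58.5% of members and 41.1% of all genes. The 160 bases before the start site are shown, 5′ to 3′, for 5 members that were lower and carry a match there, and for Rrm2, the higher member, which carries none in the window. Capitals mark the E2F letters on either strand.
Mcm6 (chr1:128359706-128359865, minus strand): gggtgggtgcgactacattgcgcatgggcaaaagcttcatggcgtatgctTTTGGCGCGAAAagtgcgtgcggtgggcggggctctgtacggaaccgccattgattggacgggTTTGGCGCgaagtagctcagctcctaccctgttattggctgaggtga
Mcm5 (chr8:75109349-75109508, plus strand): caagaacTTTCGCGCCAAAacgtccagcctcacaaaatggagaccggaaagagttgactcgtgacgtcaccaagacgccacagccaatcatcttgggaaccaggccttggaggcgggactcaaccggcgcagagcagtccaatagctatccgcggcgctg
Orc1 (chr4:108579294-108579453, plus strand): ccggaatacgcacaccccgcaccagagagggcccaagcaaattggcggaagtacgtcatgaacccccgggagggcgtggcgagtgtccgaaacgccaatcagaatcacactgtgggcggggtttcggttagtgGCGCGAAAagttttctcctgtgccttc
Cdc6 (chr11:98907991-98908150, plus strand): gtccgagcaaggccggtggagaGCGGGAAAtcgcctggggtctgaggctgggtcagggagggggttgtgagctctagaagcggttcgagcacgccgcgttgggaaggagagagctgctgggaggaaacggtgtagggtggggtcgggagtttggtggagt
Hells (chr19:38930830-38930989, plus strand): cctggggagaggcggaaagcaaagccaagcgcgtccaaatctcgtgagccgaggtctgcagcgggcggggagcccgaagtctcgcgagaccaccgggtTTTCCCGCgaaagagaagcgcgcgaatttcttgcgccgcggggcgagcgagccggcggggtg
Rrm2 (chr12:24708094-24708253, plus strand): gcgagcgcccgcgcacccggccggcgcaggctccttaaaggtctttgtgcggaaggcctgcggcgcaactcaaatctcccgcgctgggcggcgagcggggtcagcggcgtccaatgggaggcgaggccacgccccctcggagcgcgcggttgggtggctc
Mcm6 holds 3 matches, of which the first overlaps the next on the opposite strand, and Mcm5 holds an overlapping pair. Of the 16 measured members with a match 14 were lower (median log2 ratio -1.23), and of the 23 measured members with a promoter and no match 20 were lower (median -0.995). A match of letters is a description and not a binding site.

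Origin licensing genes were lower with 1 exception, at 9 of 10 members and a median log2 ratio of -1.16. Orc1, the largest subunit of the origin recognition complex, had 34 fed and 2 fasted counts (-3.73, -6.83 to -1.77). That was the lowest ratio among the 47 measured members, on the fewest fasted counts. Cdc6, the ATPase that joins the origin complex to load the helicase, had 47 and 10 counts (-1.88, -3.03 to -0.87). Orc6, another subunit of the origin complex, had 59 and 27 (-0.77, -1.49 to -0.092).

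All 6 subunits of the MCM2 to MCM7 ring, which unwinds DNA ahead of the fork, were lower, but by unequal amounts. Mcm5 went from 83.7 scaled CPM in the fed to 25.5 in the fasted library, 3.28-fold lower (-1.71, -2.01 to -1.43). Mcm2 had 68.2 and 28.8 scaled CPM (-1.24, -1.53 to -0.96). Log2 ratios of Mcm3, Mcm4 and Mcm7 were -1.20, -1.12 and -1.03. Mcm6 had 712 fed and 360 fasted counts, or 114.5 and 74.1 scaled CPM, and was 1.55-fold lower (-0.63, -0.82 to -0.44). Its interval did not overlap those of Mcm5, Mcm2, Mcm3 and Mcm4, while it overlapped that of Mcm7. Per kb of coding sequence, the ring subunits ranged from 21.1 (Mcm7) to 46.5 (Mcm6) scaled CPM in the fed library and from 10.3 (Mcm7) to 30.1 (Mcm6) in the fasted library. For Mcm7, 47.2% of 30-base coding windows occur in no other annotated gene, and reads with several alignments were not counted. Their part in its level was not tested. Cdt1, which delivers the ring to origins, was the exception, with 210 fed and 129 fasted counts (-0.35, -0.68 to -0.024), lower only with plain CPM (-0.67).

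Of 6 members that turn the loaded ring into a working helicase, 4 were lower, Gins4 was neither and Gins3 was below 30 counts. Cdc45, which joins the ring with GINS, had 80 fed and 12 fasted counts and was 5.21-fold lower (-2.38, -3.39 to -1.50). Its fasted level of 2.47 scaled CPM compared with 12.9 in the fed library. Gins1 and Gins2, subunits of the GINS complex, had 29 and 8 counts (-1.50, -2.84 to -0.34) and 35 and 10 counts (-1.45, -2.63 to -0.41). Mcm10, which helps to activate the helicase, had 145 and 57 (-0.99, -1.46 to -0.54). Gins4 had 66 and 37 counts (-0.48, -1.10 to 0.12; -0.80 and lower with plain CPM). Gins3 had 11 and 1, too few for a call at the minimum used.

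Among the polymerases and primase, 8 of 9 members were lower. Pola1, the catalytic subunit of polymerase alpha, which starts each new strand, had 197 fed and 47 fasted counts and was 3.28-fold lower (-1.71, -2.20 to -1.25). Pole2, an accessory subunit of the leading-strand polymerase epsilon, had 61 and 16 (-1.57, -2.47 to -0.76). The catalytic subunits of polymerases delta and epsilon, Pold1 and Pole, had log2 ratios of -1.26 and -1.21. Smaller differences were seen for Pold3 (-0.97), Pola2 (-0.66) and Pold2 (-0.63). Prim1, the small primase subunit that makes the RNA primer, had 113 and 44 counts (-1.01, -1.54 to -0.49). Prim2, its large partner, had 79 and 62 counts, or 12.7 and 12.8 scaled CPM, a log2 ratio of 0.0059 (-0.50 to 0.50; -0.32 with plain CPM).

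The clamp, clamp loader and single-strand binding genes were lower in 6 of 9 cases, at a median of -0.82. Pcna, the sliding clamp that holds polymerases on DNA, had 300 fed and 189 fasted counts, or 48.3 and 38.9 scaled CPM (-0.31, -0.58 to -0.044), and did not reach 1.5-fold except with plain CPM (-0.63). Only 24.1% of its coding windows occur in no other annotated gene and most of the shared ones lie in the pseudogene Pcna-ps2. Of the loader subunits, Rfc4 had 130 and 40 counts (-1.35, -1.89 to -0.82), Rfc5, Rfc2 and Rfc1 had log2 ratios of -1.04, -0.96 and -0.82, and Rfc3 had 104 and 63 counts (-0.37, -0.84 to 0.097; -0.69 and lower with plain CPM). The subunits of RPA, the complex that coats single-stranded DNA, spread widely. Rpa3 had 78 and 21 counts (-1.54, -2.31 to -0.83). Rpa1, the largest subunit, had 406 and 203 (-0.64, -0.89 to -0.40). Rpa2 had 112 and 97 (0.15, -0.26 to 0.55; -0.17 with plain CPM), so its direction turned with the scaling.

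Both genes that finish lagging strands were lower. Lig1, the ligase that seals Okazaki fragments, had 365 fed and 140 fasted counts (-1.03, -1.32 to -0.74). Fen1, the nuclease that trims their flaps, had 224 and 116 (-0.59, -0.93 to -0.26).

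**Figure D2:**
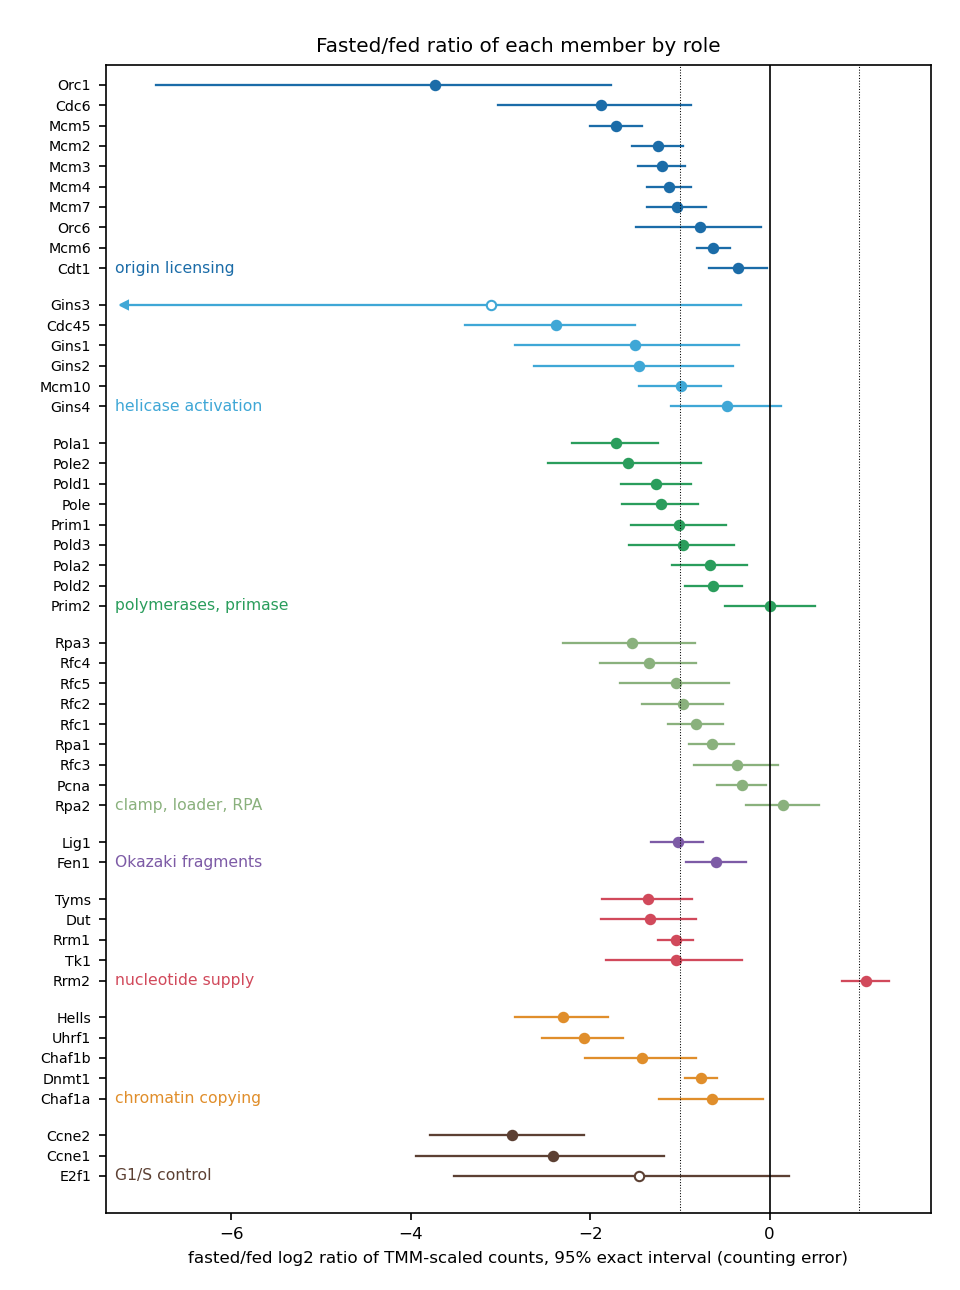
Fasted/fed log2 ratio of each member after TMM scaling, with bars for the 95% exact interval of counting error. Colours and labels give the role, open circles mark the 2 members below 30 counts, an arrow marks an interval cut at the axis, and dotted lines mark 2-fold. The single point right of the upper dotted line is Rrm2 at 1.07, and the lowest filled point is Orc1 at -3.73.

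Nucleotide supply held the member that went the other way. Rrm2, the small subunit of ribonucleotide reductase, which carries the radical needed to make deoxynucleotides and is normally made in S phase, had 198 fed and 325 fasted counts. Its level was 31.9 scaled CPM when fed and 66.9 when fasted, 2.10-fold higher (1.07, 0.81 to 1.33; 0.75 and still higher with plain CPM). Rrm1, the large subunit of the same enzyme, had 814 fed and 308 fasted counts, or 131 and 63.4 scaled CPM, and was 2.07-fold lower (-1.05, -1.24 to -0.86). Thus the partners of 1 enzyme lay on opposite sides of equal levels. The other members of the group were lower. Tyms, which makes thymidylate, had 147 and 45 counts (-1.35, -1.87 to -0.86), Dut, which clears dUTP, had 132 and 41 (-1.33, -1.87 to -0.82), and Tk1, the S phase thymidine kinase, had 58 and 22 (-1.04, -1.82 to -0.31).

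The ratio of Rrm2 to Rrm1 counts needs no scaling between libraries. Per coding length there were 0.49 Rrm2 footprints for each Rrm1 footprint in the fed library and 2.14 in the fasted library. The gene/gene count ratio was 4.33-fold larger in the fasted library (95% exact conditional interval 3.46 to 5.44). Rrm2 made up 1.92% of member counts in the fed (exact binomial 95% interval 1.66% to 2.20%) and 7.53% in the fasted library (6.76% to 8.35%). In the order of levels per kb it moved from place 13 to place 1 of the 49 members. Its fasted interval overlapped that of Pcna, so place 1 is not resolved. Rrm2 (ENSMUSG00000020649, chromosome 12, 24708241 to 24714146, plus strand, mm10) overlaps no other annotated exon, but 69.9% of its 30-base coding windows occur in no other annotated gene, and the rest are shared with pseudogenes. Its paralog Rrm2b, which p53 induces and which supplies deoxynucleotides outside S phase, had 8 and 11 counts, below the minimum. Of the 39 members with at least 90% of windows to themselves, which leaves out Rrm2, 32 were lower and 0 higher. Gins3 and E2f1 are among these 39 but were below 30 counts. Of all measured genes, whatever their windows, 17.3% were lower and 17.3% higher.

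Other pairs within a library were compared in the same way. The 15 pairs were chosen after their values were seen, and the intervals of 12 excluded a ratio of 1. Against Tyms, Rrm2 was 5.35-fold larger in the fasted library (3.62 to 8.004), and against Tk1 4.32-fold (2.51 to 7.65). The Mcm6 to Mcm5 ratio was 2.12-fold larger (1.67 to 2.70), Prim2 to Prim1 2.01-fold (1.21 to 3.36) and Pola2 to Pola1 2.07-fold (1.33 to 3.23). By contrast the Ccne2 to Ccne1 ratio was 0.73-fold (0.24 to 2.48), Gins4 to Gins1 2.02-fold (0.80 to 5.66) and Chaf1a to Chaf1b 1.71-fold (0.95 to 3.13), so no inequality was detectable for these at this depth.

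**Figure D3:**
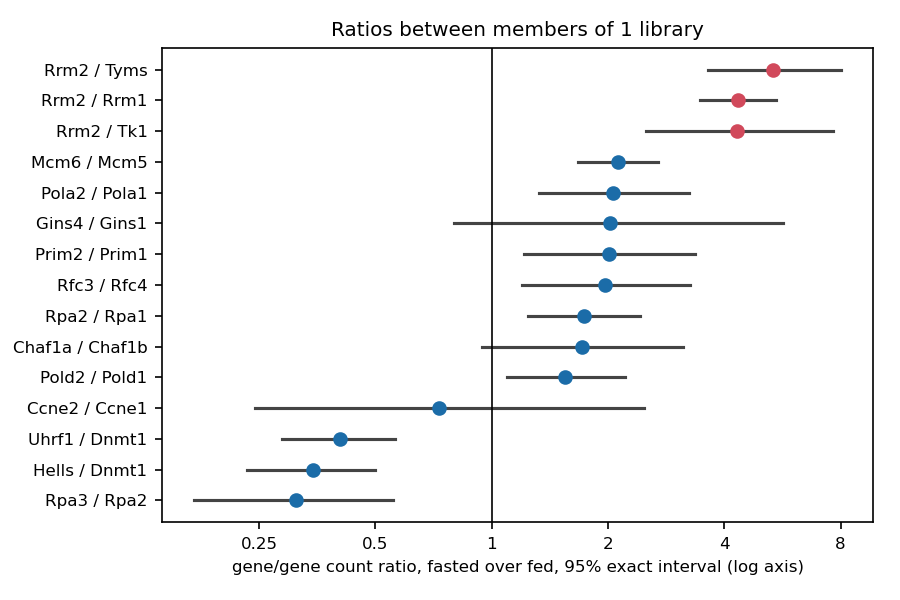
Ratio of the counts of 2 members in the fasted library over the same ratio in the fed library, on a log axis, with 95% exact conditional intervals. Red points have Rrm2 as numerator and lie at 4.32 to 5.35, while the other 12 pairs lie between 0.31 and 2.12.

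Genes that copy chromatin along with DNA were lower in 5 of 5 cases, at a median of -1.41. Hells, a chromatin remodeller needed for DNA methylation, had 240 fed and 38 fasted counts and was 4.94-fold lower (-2.30, -2.84 to -1.81). Uhrf1, which reads hemimethylated DNA and recruits the maintenance methyltransferase, had 269 and 50 (-2.07, -2.54 to -1.63). That methyltransferase, Dnmt1, the member with most counts in sum, had 841 and 387, or 135 and 79.6 scaled CPM, and was 1.70-fold lower (-0.76, -0.94 to -0.59). Within a library, the Hells to Dnmt1 ratio was 0.34-fold (0.23 to 0.50) and the Uhrf1 to Dnmt1 ratio 0.40-fold (0.29 to 0.56). The CAF-1 subunits, which place histones behind the fork, had 103 and 30 counts for Chaf1b (-1.42, -2.06 to -0.83) and 78 and 39 for Chaf1a (-0.64, -1.24 to -0.072). Exons of 12 members overlap a protein-coding gene of the opposite strand, and with the strand setting not given, reads from the shared bases cannot be told apart. The longest overlaps were those of Gins2 with Gse1 (2758 bases; Gse1 had 335 and 379 counts) and of Chaf1a with Ubxn6 (2542 bases; 132 and 149 counts). The others were Mcm7, Orc6, Cdc45, Rfc2, Rfc4, Rfc5, Lig1, Fen1, Tk1 and Ccne2.

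Both measured G1/S regulators were lower, at a median of -2.57, and both reached the minimum mainly through the fed library. Ccne2, a cyclin E gene, had 131 fed and 14 fasted counts, or 21.1 and 2.88 scaled CPM, and was 7.31-fold lower (-2.87, -3.78 to -2.07). Ccne1, the other cyclin E gene, had 41 and 6 (-2.42, -3.94 to -1.17). E2f1, an activator E2F of S phase entry, had 14 and 4 counts, below the minimum, with an interval from -3.51 to 0.22. Ccne2 shares 474 exon bases with Ints8 on the opposite strand, which had 199 and 70 counts.

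**Figure D4:**
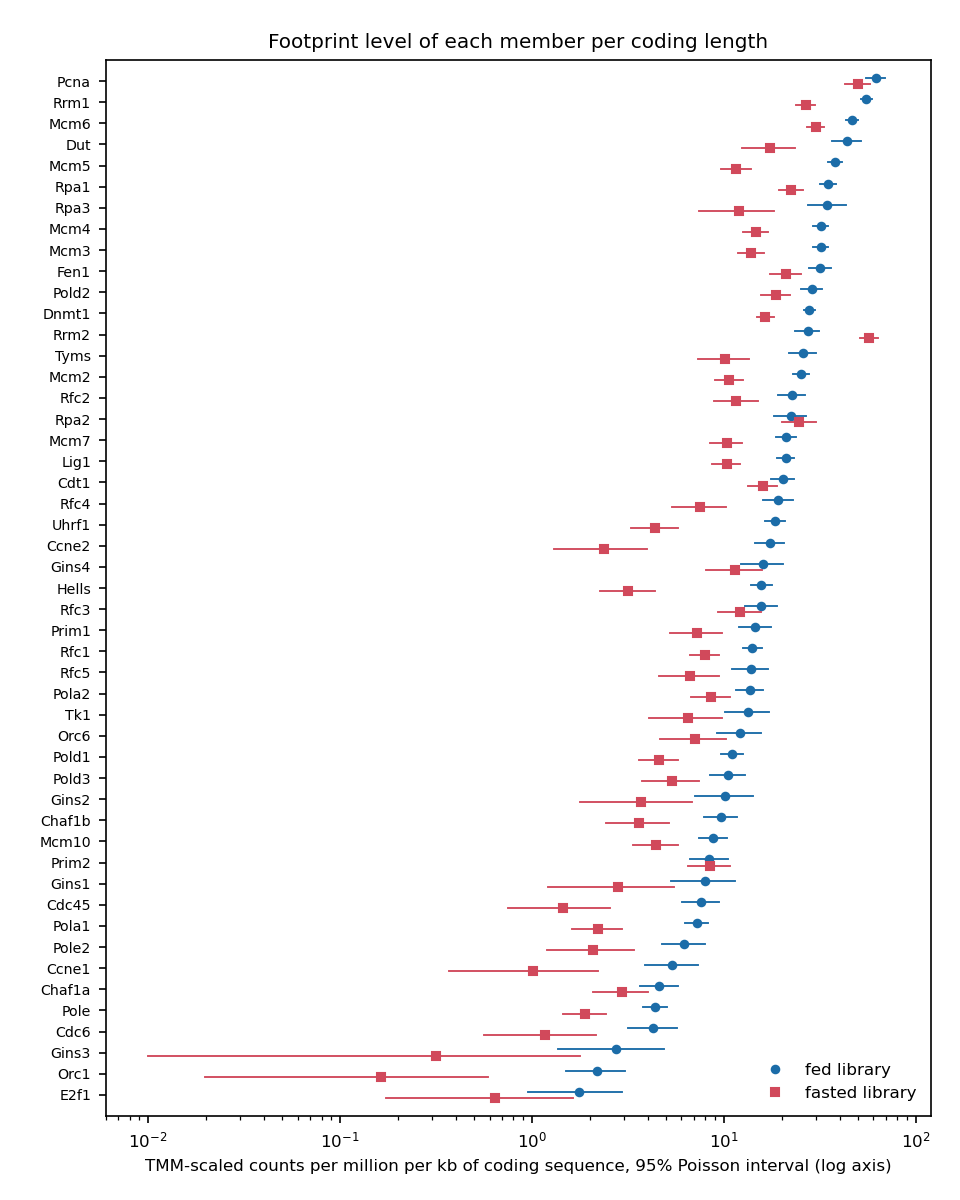
Footprint level of the 49 members as TMM-scaled CPM per kb of coding sequence, on a log axis, ordered by the fed library, with 95% exact Poisson intervals. Circles are the fed and squares the fasted library. Fed levels span 1.75 (E2f1) to 61.6 (Pcna), fasted levels 0.16 (Orc1) to 57.2 (Rrm2), and Rrm2 is the only member whose square lies clearly to the right of its circle.

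Per kb of coding sequence, the highest members in the fed library were Pcna (61.6 scaled CPM per kb), Rrm1 (55.1), Mcm6 (46.5) and Dut (43.7). In the fasted library they were Rrm2 (57.2), Pcna (49.7), Mcm6 (30.1) and Rrm1 (26.7). The interval of Rrm2 in the fasted library overlapped that of Pcna, so their order there is not resolved. Levels were divided by the full coding length, though reads with several alignments were not counted. Windows found in no other annotated gene made up 24.1% for Pcna and 69.9% for Rrm2. The effect of this on the order of members was not tested. At the low end, E2f1 (1.75), Orc1 (2.17) and Gins3 (2.73) came last in the fed library, and Orc1 (0.16), Gins3 (0.32) and E2f1 (0.64) in the fasted library.

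Of 39 measured replication factors outside the member list, 20 were lower, 0 higher and 19 neither (median -0.68; 32 lower and 0 higher, at -1.003, with plain CPM). They included Rnaseh2c, a subunit of the RNase that removes ribonucleotides (-1.38, -1.99 to -0.81), Topbp1, which brings firing factors to origins (-1.21, -1.66 to -0.78), and Atad5, which helps to unload PCNA (-1.53, -2.40 to -0.74). Gmnn, the inhibitor of Cdt1, had 114 and 53 counts (-0.75, -1.25 to -0.27). For this list and those that follow, the background was 17.3% lower and 17.3% higher of all measured genes (31.2% and 8.86% with plain CPM). In the replication stress and repair list 10 of 18 were lower, among them Chek1, the S phase checkpoint kinase (-2.13, -3.15 to -1.23), Fanci (-1.79, -2.68 to -0.997) and Rad54l (-2.40, -4.38 to -0.88), and 1 was higher, Wee1, the kinase that holds back CDK1 (0.74, 0.33 to 1.14; 0.41 and neither with plain CPM).

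Other nucleotide genes had 12 of 25 lower and 0 higher (median -0.55; 19 lower and 0 higher, at -0.87, with plain CPM). The lowest by the bound nearest to 1 were Dck, the deoxycytidine kinase of the salvage route (-1.60, -2.13 to -1.10), Dguok, the mitochondrial deoxyguanosine kinase (-1.42, -1.92 to -0.93), and Cad, which starts pyrimidine synthesis (-1.12, -1.36 to -0.90). Samhd1, which degrades deoxynucleotides, had 640 and 361 counts (-0.47, -0.66 to -0.28; -0.79 and lower with plain CPM), and Rrm2 was the 1 higher gene over both nucleotide lists.

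Of 24 measured G1/S control genes beyond the members, 9 were lower and 1 higher (median -0.30; 14 lower and 0 higher, at -0.63, with plain CPM). Ccnd1, the cyclin D1 gene that growth signals induce, had 591 and 114 counts and was 4.05-fold lower (-2.02, -2.32 to -1.73), E2f2 had 99 and 15 (-2.37, -3.26 to -1.58) and E2f3 50 and 9 (-2.12, -3.33 to -1.08). Ccna2, the cyclin of S and G2 phase, was lower too (-1.15, -1.45 to -0.86). Rbl2, the pocket protein p130 of quiescent cells, was the higher one (0.73, 0.40 to 1.06; 0.40 and neither with plain CPM). Of 14 measured CDK inhibitors and quiescence genes 4 were higher and 2 lower (median 0.37), against 17.3% higher and 17.3% lower of all measured genes. With plain CPM 2 were higher and 2 lower (median 0.043), against 8.86% and 31.2%. Cdkn1a, the CDK inhibitor p21, had 850 fed and 2449 fasted counts and was 3.69-fold higher (1.88, 1.77 to 1.996), Btg1 was higher (1.12, 0.84 to 1.41), and Tob1 had 0.59 (0.27 and neither with plain CPM). Cdkn1b, the inhibitor p27, had 289 and 302 counts (0.42, 0.18 to 0.66; 0.096 with plain CPM). Ccng2 and Cdkn2b were the lower ones (-0.70 and -0.65).

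**Figure D5:**
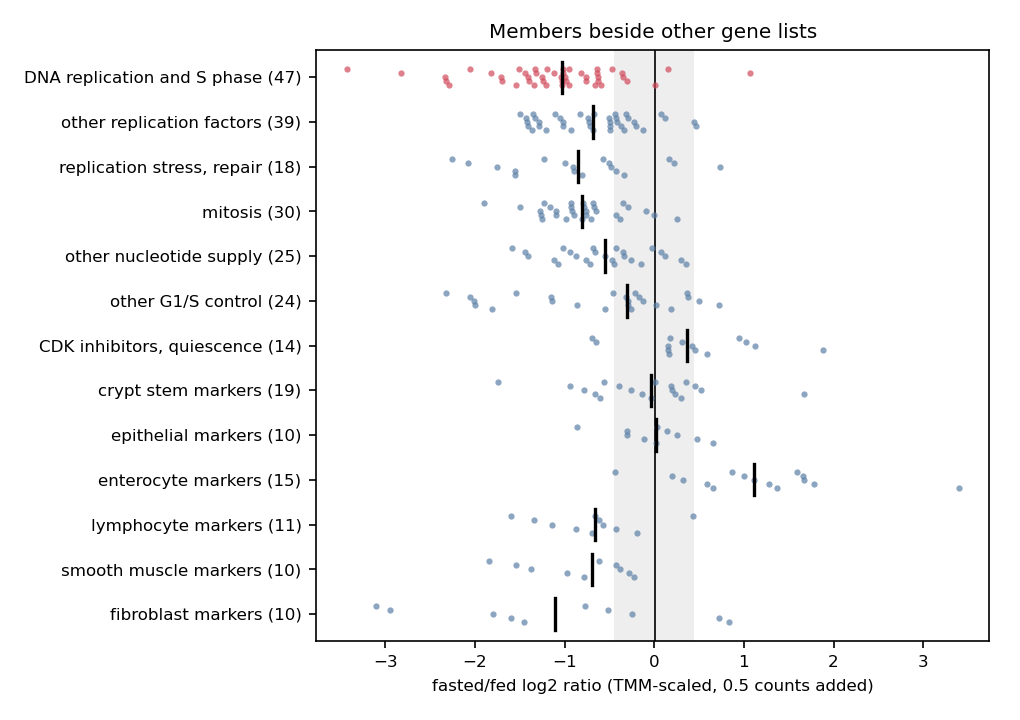
Each point is a gene with at least 30 counts in sum, placed by its fasted/fed log2 ratio. Rows are gene lists with the number of measured genes in brackets, thick bars mark list medians, and the grey band holds the middle 50% of all measured genes (-0.44 to 0.44). The replication members, in red, have a median of -1.03, and the enterocyte markers one of 1.11.

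Mitosis genes, the next stage of the cycle, were lower in 22 of 30 measured cases with 0 higher (median -0.80). Top2a, which untangles copied DNA, had 1786 and 494 counts (-1.50, -1.64 to -1.35), Mki67, the proliferation marker Ki-67, had 1525 and 496 (-1.26, -1.41 to -1.12), and Cenpe was lowest (-1.91, -2.35 to -1.50). Cdk1 was lower (-0.80, -1.07 to -0.53), and Ccnb1, with 27 and 12 counts, was neither. Whether replication and mitosis genes differed in size of change was not tested.

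Markers of the cell types that could hold these footprints are given beside the background of 17.3% lower and 17.3% higher (31.2% and 8.86% with plain CPM). Of 19 crypt stem cell markers 4 were lower, 1 higher and 14 neither (median -0.036; 7 lower and 1 higher, at -0.36, with plain CPM). Their summed level was 2456 CPM when fed and 1231 CPM when fasted, with Olfm4 giving 7932 of 13651 fed counts (-1.74, -1.82 to -1.67). Lgr5 had 281 and 249 counts (0.18, -0.071 to 0.43) and Ascl2 49 and 25 (-0.62, -1.37 to 0.11). Enterocyte markers were higher for 11 of 15 and lower for 0 (9 higher and 1 lower, Fabp6, with plain CPM), summing to 69216 and 125052 CPM, and Sis, sucrase-isomaltase of the villus, was 3.02-fold higher. Fabp6, the ileal bile acid binding protein, had 28873 and 16615 counts (-0.44, -0.47 to -0.41; -0.76 and lower with plain CPM). Paneth cell markers were lower for 2 and higher for 3 of 9 measured (15278 and 12987 CPM; 2 lower and 1 higher with plain CPM), with Defa17 at 0 counts in both libraries, and goblet cell markers were lower for 3 and higher for 0 of 7 (56365 and 34931 CPM). General epithelial markers had 1 higher and 1 lower of 10 (median 0.022; -0.30 with plain CPM).

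Outside the epithelium, lymphocyte markers were lower for 7 of 11 and higher for 0, summing to 1098 and 437 CPM, with Ptprc, the pan-leukocyte CD45, at -0.87 (-1.06 to -0.69). Of germinal centre B cell markers, which mark fast dividing B cells, 3 of 7 were measured, with Rgs13 lower (26 and 5 counts), Fas higher (95 and 127; neither with plain CPM) and Bcl6 neither (166 and 141). Mef2b had 0 counts in both libraries, and the 7 genes summed to 59.4 and 53 CPM. Smooth muscle markers were lower for 6 of 10 (6344 and 2896 CPM; 9 with plain CPM), including Myh11 (-0.61, -0.66 to -0.56). Fibroblast markers were lower for 6 and higher for 2 of 10 (6398 and 2219 CPM; 7 lower and 0 higher with plain CPM). Col1a1 was 7.73-fold lower, while Dcn was 1.78-fold and Pdgfra 1.65-fold higher. The germinal centre genes, Dcn and Pdgfra were named after their values were seen. Endothelial markers were higher for 1 and lower for 0 of 6 (269 and 303 CPM). The part of these cell types in the lower replication footprints was not tested.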

How the data were processed

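Ribosome-protected fragments of mouse ileum were sequenced in 1 fed and 1 fasted library. The deposited files hold raw read counts per gene symbol, made by the authors; the submitters' processing notes list cutadapt, Bowtie 1.1.2, STAR, HTSeq and the build mm10 without saying what each did. No source used here gives the annotation, strand setting or footprint length filter.

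Entries given as NA (7647 fed, 7827 fasted) were read as 0, and no member was NA. Totals that name no gene were left out; reads with several alignments made up 41.4% (fed) and 39.9% (fasted) of counted reads, and reads on no counted feature 13.4% and 21.0%. Libraries were scaled by TMM (edgeR 4.0.16, R 4.3.3), and intervals are Clopper-Pearson intervals on the split of a gene's counts between libraries (scipy 1.17.1). With 1 library per group no test was possible. A count of 0 allows up to 3 counts, 0.54 (fed) or 0.55 (fasted) CPM. PCR copies are not independent molecules, so intervals cover counting error only. List medians use 0.5 counts added to each count.

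Coordinates and coding lengths come from GENCODE vM21 (GRCm38, the assembly of mm10). Coding windows of 30 bases were searched in its 141767 transcripts, since no genome was used here. The counting functions were tested on simulated data with sampling noise only and 200 changed genes. There 34.0% of genes changed 1.5-fold and 94.0% of those changed 2-fold were recovered, so a call of neither does not show equal levels. Members and lists were chosen with earlier results of these data known. Genes named are all members, up to 3 lower and 3 higher per other list by the interval bound nearest to 1, and a few preset markers. Alternatives were plain CPM, DESeq2 1.42.0 size factors, upper-quartile factors, TMM without abundant genes, other minimum counts, fold thresholds, intervals, added counts and summaries.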

Additional observations from a re-analysis of the deposited data

How the results depend on the processing

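Calls on the 47 measured members stayed as they were under DESeq2 size factors, upper-quartile factors and TMM without abundant genes, and with plain CPM 4 more became lower (Cdt1, Gins4, Pcna and Rfc3) and 43 were as before. The count of lower members was 21 with a minimum of 200 counts, where fewer members were measured. Of those with that many counts, only Cdt1, Pcna and Rpa2 were neither and Rrm2 was higher. Under the other alternatives the count lay between 28 (2-fold, with 9.13% of all measured genes lower) and 44 (plain CPM, with 31.2% lower). The count of higher members was 0 among members with at least 90% of coding windows in no other annotated transcript, a setting added after the data were seen that leaves out Rrm2 by construction, and 1 under each other alternative. The median log2 ratio was -1.35 with plain CPM and -1.13 as a mean, and between -1.05 and -0.98 otherwise. Without Dnmt1, members summed to 1705 CPM (fed) and 723 CPM (fasted). The planned search of the genome for copied windows was not run. No paired analysis was possible because each condition has 1 library, and for the same reason no replicate could be left out. Depth limits the low members: Orc1, Gins3, E2f1 and Ccne1 had 6 or fewer fasted counts.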

Other observations

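Near Rrm2, only Klf11 reached the minimum count, and it was called higher, as were 17.3% of all measured genes. Of the genes that lie within 100 kb of it and are in the files, a set chosen after the value of Rrm2 was seen, Klf11, a Krüppel-like transcription factor 45.5 kb away, had 41 fed and 181 fasted counts, 5.65-fold higher (log2 ratio 2.50, 2.002 to 3.02; 2.18 with plain CPM). Cys1, 26.4 kb away, had 1 and 5 counts and Grhl1, 90.8 kb away, had 9 and 8, both below the minimum.

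Among G1/S genes, Ccnd1 (591 and 114 counts) and Ccnd3 (124 and 33; log2 ratio -1.55) were lower, while Ccnd2 had 1041 and 653 counts (-0.32) and Cdk4 229 and 146 (-0.29). Cdc25a, the phosphatase that activates CDK2, had 238 and 242 counts (0.38; 0.057 with plain CPM), beside E2f7 (-2.08), E2f8 (-1.16) and Ccna2 (-1.15) in the same list. These genes were chosen after their values were seen, and whether they differ from each other was not tested.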
